A study of Mus musculus with 32 samples.

Results

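The comparison described here set lung tumors in which *Lkb1* had been switched back on (restored) against lung tumors that had never lost it (KT). Libraries were chosen by their labels alone, as every *Trp53* wild-type library labelled Restored or KT, which gave 11 of the 32 libraries of the series (7 restored and 4 KT). Each library was a bulk RNA-seq profile of sorted neoplastic cells from mouse tumors started by Cre-expressing lentivirus given into the trachea and collected 24 to 27 weeks later. KT mice carried Rosa26LSL-tdTomato and received no treatment. Restored mice were Lkb1XTR/XTR with Rosa26LSL-tdTomato/FLPo-ERT2, and received tamoxifen for 2 weeks before collection. The XTR allele carries a gene trap in *Lkb1* that Cre turns on and that the tamoxifen-dependent recombinase FLPo-ERT2 removes. Another group, 10 non-restored *Trp53* wild-type libraries, shared 1 fit with the other groups. Its mice were also Lkb1XTR/XTR, with the gene trap left in place. They were collected at the same 24 to 27 weeks after 2 weeks of treatment, so this was a parallel group and not a sample from before restoration. It held 6 libraries with FLPo-ERT2 and vehicle and 4 libraries without FLPo-ERT2 and with tamoxifen. All groups carried a tdTomato reporter and a Cre-activated oncogene.

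*Lkb1* (gene symbol *Stk11*) encodes a tumor suppressor kinase that acts in a complex with STRAD and MO25 and switches on AMPK and a family of related kinases, among them the salt-inducible kinases. Through these it restrains anabolic metabolism, growth and CREB-driven transcription. In the lung, adenomas of this kind arise largely from alveolar type II cells, the surfactant-producing cells of the air sacs, and loss of LKB1 makes such tumors larger and more advanced. The question asked of these libraries was which genes differed from tumors with intact *Lkb1* after 2 weeks of restored *Lkb1*.

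The groups differed in more than the history of *Lkb1*. All 7 restored libraries came from females, whereas KT replicates 1 and 4 were male and KT replicates 2 and 3 were female. The KT mice had neither the XTR allele, FLPo-ERT2 nor tamoxifen. Per the study's methods, they also received a lower dose of the Cre virus than the XTR mice. A particular version of the tdTomato allele was chosen for the XTR mice, while that of the KT mice is not stated. The effects of these differences, and of the mouse line that carried the XTR allele, cannot be told apart from that of *Lkb1* history here. The study's methods name fewer restored mice than there are restored libraries, so some libraries share a mouse and the p-values are then too small. KT libraries were among the shallowest, with 1302482 to 2649449 expected counts against 1658277 to 5943951 in the restored libraries. Restored replicates 4 and 5 stood apart from the other restored libraries (Spearman 0.885 to 0.907 across genes, against 0.931 to 0.964 among the other 5), and restored replicates 1 and 6 carried more transcripts of macrophages than the rest.

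Much of the largest signal in this comparison lay in genes that have near-identical copies elsewhere in the genome, so a pair of such sequences is shown first. *Capza1* (chr3:104822779-104864505, mm10) encodes an α subunit of the actin capping protein, and *Gm3608* (chr1:105455971-105458829, mm10) is an annotated pseudogene whose sequence matches the *Capza1* transcript over 2859 aligned bases at 99.55% identity, with 8 mismatches and 5 gaps. Within the coding sequence of *Capza1* the 2 differ at 3 of 858 bases. The stretch below covers bases 640 to 699 of the *Capza1* transcript, 5′ to 3′, and the capital marks the base that differs (T31C, counted from the first base printed, with *Capza1* as the reference).
Capza1: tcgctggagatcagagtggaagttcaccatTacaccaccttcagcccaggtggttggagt
Gm3608: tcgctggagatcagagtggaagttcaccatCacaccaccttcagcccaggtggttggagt
A read from this stretch could be given to one gene or the other by 1 base only, so the level of each copy taken alone is uncertain, and the sum of the copies is given beside it.

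The second set of sequences belongs to *Mir17hg* (chr14:115042879-115046727, mm10), the host gene of the miR-17-92 cluster, which was higher in restored tumors. The transcript holds 6 microRNA hairpins. The main mature arms are shown 5′ to 3′ from RefSeq (GRCm38.p6) with the seed, bases 2 to 8, in capitals. They fall into families by seed, since miR-17-5p and miR-20a-5p share one seed and miR-19a-3p and miR-19b-3p share another.
miR-17-5p: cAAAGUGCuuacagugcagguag
miR-20a-5p: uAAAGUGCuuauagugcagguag
miR-18a-5p: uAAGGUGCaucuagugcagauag
miR-19a-3p: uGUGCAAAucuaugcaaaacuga
miR-19b-3p: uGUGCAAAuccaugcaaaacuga
miR-92a-3p: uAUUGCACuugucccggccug
The libraries measured the host transcript and not the mature microRNAs.

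*Stk11* itself (chr10:80115803-80130682, mm10) was expressed in every restored library, at a lower level than in KT. KT libraries read 19.2, 16.6, 27.2 and 26.4 CPM (counts scaled to the size of the library), and restored libraries ranged from 11.6 to 22.3 CPM with a median of 15.3 CPM. The restored libraries overlapped the KT range, and 5 of the 7 lay below the lowest KT library. The restored mean was 15.7 ± 3.53 CPM (SD, n = 7) and the KT mean 22.4 ± 5.25 CPM (SD, n = 4), so restored tumors held 70.4% of the KT level (two-sided exact permutation test over 330 splits, p = 0.0424, where the smallest p possible was 0.00606). Non-restored libraries held 0.4 ± 0.326 CPM (SD, n = 10). In the fit across all genes the restored minus KT difference was -0.51 ± 0.30 on the log2 scale (SE), with an adjusted p of 0.582 by edgeR's quasi-likelihood test with Benjamini-Hochberg adjustment, so the gene was not called there. In females alone the level was 71.9% and the exact permutation p 0.111. The difference also missed 0.05 without KT replicate 3 (exact permutation p = 0.117), without KT replicate 4 (exact permutation p = 0.108), and without any single one of restored replicates 1 to 6 (exact permutation p = 0.0524 to 0.0714).

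A small share of genes differed between restored and KT tumors. Of 12656 genes tested, 63 (0.498%) passed an adjusted p of 0.05, with 18 (0.142%) higher and 45 (0.356%) lower in restored tumors than in KT tumors. By comparison, 1335 genes (10.5%) had an unadjusted p under 0.05, and the median log2 difference over all genes was 0.01. The difference exceeded 1 on the log2 scale in 51 of the 63, and 50 were protein coding. Some of the 63 also passed between non-restored and KT tumors in the same fit, such as *Rps13* (edgeR adjusted p = 2.01e-08). Others did not, such as *Apobec3* and *Cubn* (edgeR adjusted p = 0.137 and 0.19). The 63 are thus not all genes that already differed in tumors with the gene trap in place. Restored and KT ranges did not overlap for 54 of the 63 called genes (85.7%), against 348 of all genes tested (2.75%). The 63 were selected on these same libraries, so this separation largely follows from the selection and is not separate support. Several single libraries carried part of this count. It was 21 without KT replicate 1 and 22 without KT replicate 4, both male, and 37 without restored replicate 1 and 39 without restored replicate 4. With sex as a covariate 22 genes were called, and with female libraries alone 10. A fit without the non-restored libraries called 53, of which 30 were among the 63. All 63 kept their direction in each of these settings in which they were tested. Each setting refits the same libraries or part of them, so this too largely follows from the selection.

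**Figure D1:**
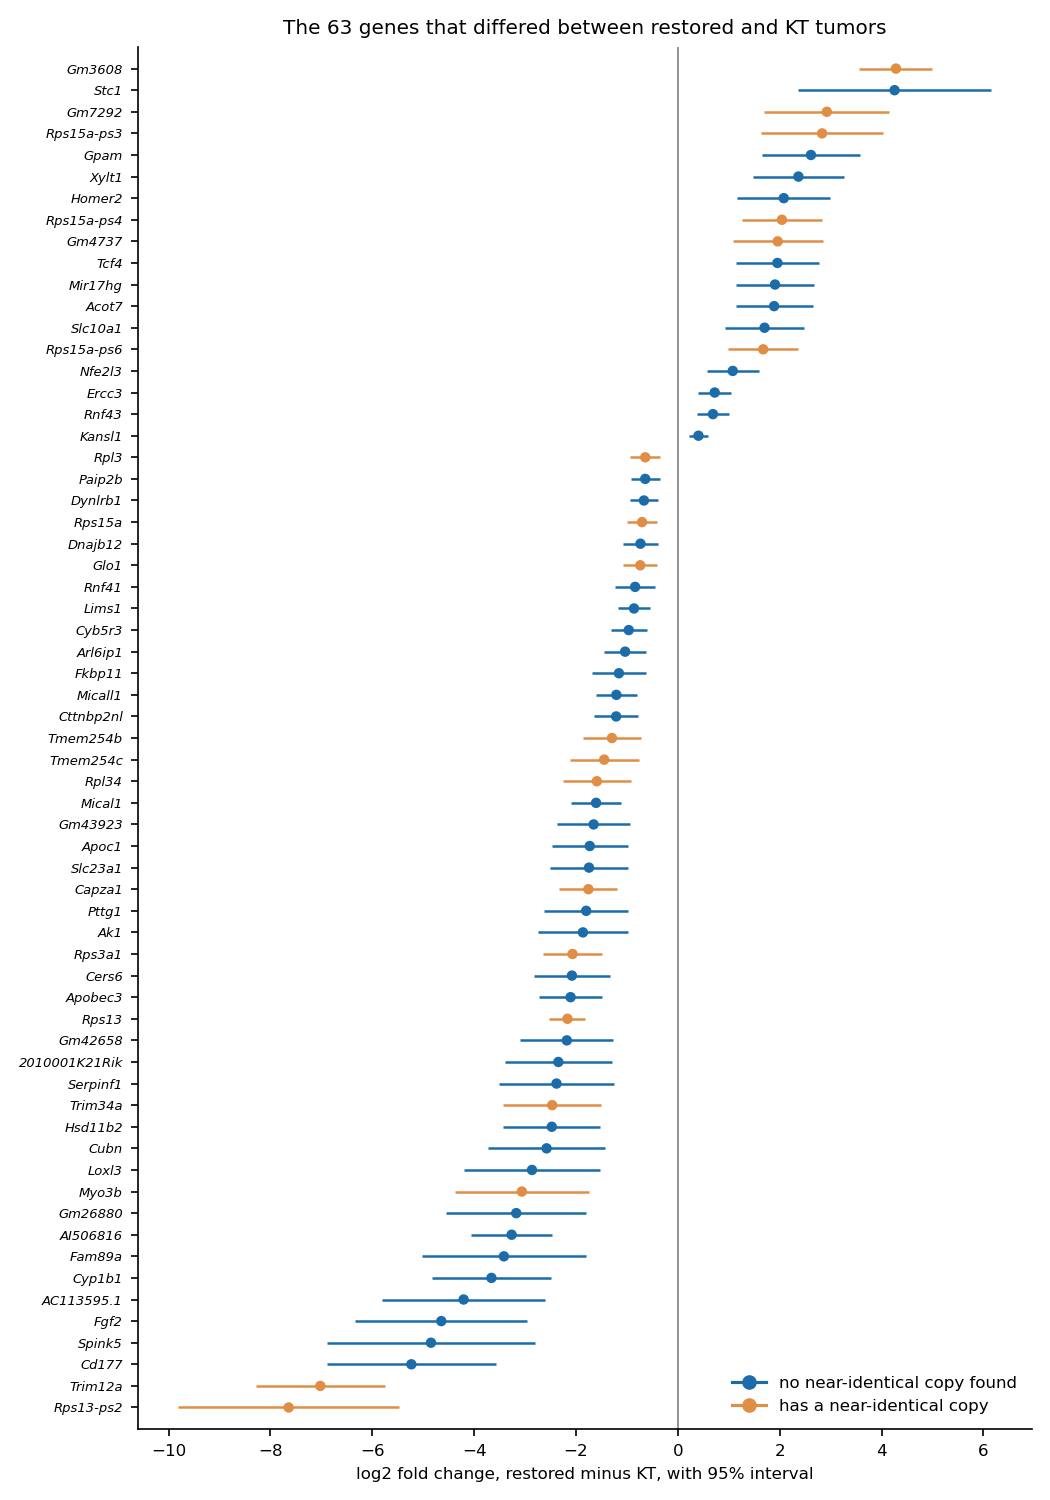
Restored minus KT difference on the log2 scale (horizontal axis) for the 63 called genes, 1 row each, with points for the estimates, lines for 95% confidence intervals from the fit, and color marking genes with a near-identical copy. *Trim12a* and *Cd177* (-5.23) lie far on the lower side, and *Gm3608* (4.28) and *Stc1* (4.26) far on the higher side.

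Ribosomal protein genes and their processed copies made up a large group among the called genes. *Rps13* (chr7:116331505-116334195, mm10), a protein of the small ribosomal subunit, read 482, 496, 335 and 509 CPM in KT and 76.8 to 128 CPM in restored libraries (median 97.9 CPM). The ranges lay far apart, and the difference was -2.17 ± 0.17 (log2, SE, edgeR adjusted p = 1.48e-07). Non-restored libraries averaged 107 CPM, close to the restored level. Its processed copy *Rps13-ps1* moved the other way, from 8.24, 14.1, 260 and 16.8 CPM in KT to 403 to 528 CPM in restored libraries (log2 difference 2.52, edgeR adjusted p = 0.0863). KT replicate 3, which had the lowest *Rps13*, had by far the highest *Rps13-ps1* of the KT group. Another copy, *Rps13-ps2*, was at 0 in all 7 restored libraries and had 57 counts over the 4 KT libraries, at least 62.8-fold lower when restored libraries are set at a floor of 3 counts over the group. Summed over its copies, the family read 539 ± 42.6 CPM in KT (SD, n = 4) and 539 ± 54.4 CPM in restored libraries (SD, n = 7), a log2 difference of 0.00 (95% confidence interval -0.30 to 0.30).

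*Capza1* and *Gm3608* followed the same form. *Capza1* fell from 115, 165, 162 and 163 CPM in KT to 27.6 to 63.7 CPM in restored libraries (median 41.7 CPM), a difference of -1.76 ± 0.28 (log2, SE, edgeR adjusted p = 0.00268). *Gm3608* rose from 3.43, 3.32, 5.28 and 7.19 CPM to 78.8 to 134 CPM (median 88 CPM), a difference of 4.28 ± 0.35 (log2, SE, edgeR adjusted p = 1.48e-07). Neither gene's ranges overlapped. Non-restored libraries averaged 55.3 CPM of *Capza1* and 117 CPM of *Gm3608*. The sum of the 2 was 156 ± 24.9 CPM in KT and 143 ± 28.9 CPM in restored libraries, a log2 difference of -0.13 with an interval of -0.63 to 0.37 (edgeR adjusted p = 0.915).

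The other ribosomal families also moved less when their copies were summed. *Rps3a1* read 1890, 253, 1250 and 1280 CPM in KT and 251 to 330 CPM in restored libraries (log2 difference -2.07 ± 0.28, edgeR adjusted p = 0.000589), and KT replicate 2 sat inside the restored range. Its copies *Rps3a2* (188, 481, 293 and 262 CPM in KT, 410 to 493 CPM in restored) and *Rps3a3* (335, 639, 428 and 342 CPM, against 557 to 671 CPM) were highest in that same KT library. The sum of the family fell by 0.49 on the log2 scale (edgeR adjusted p = 0.183). *Rps15a* read 1100, 1040, 1030 and 1110 CPM in KT and 590 to 782 CPM in restored libraries (log2 difference -0.70 ± 0.14, edgeR adjusted p = 0.021). Its copies *Rps15a-ps3*, *Rps15a-ps4* and *Rps15a-ps6* were called higher, with KT replicate 3 nearest to the restored libraries for each, and the sum differed by -0.42 (edgeR adjusted p = 0.247). *Rpl34* (85.8, 170, 192 and 169 CPM in KT, 40.5 to 61 CPM in restored) and *Rpl3* (917, 557, 697 and 702 CPM, against 413 to 554 CPM) were called lower, while their sums differed by -0.30 (edgeR adjusted p = 0.506) and -0.12 (edgeR adjusted p = 0.801). Over all 73 genes of cytosolic ribosomal proteins, 4 were called (*Rps13*, *Rps15a*, *Rpl34* and *Rpl3*, while *Rps3a1* is not in this list). In this list 8 of 73 had a positive difference, and the median was -0.17 on the log2 scale against 0.01 for all genes. Across all genes tested 0.498% were called and 51.5% had a positive difference. Outside the ribosomal proteins, *Gm4737*, a copy of the S-adenosylhomocysteine hydrolase gene *Ahcy*, was called higher (4.12, 11.6, 2.03 and 2.88 CPM in KT, 12.2 to 27.9 CPM in restored libraries), and the sum of that family differed by -0.19 (edgeR adjusted p = 0.888). *Gm7292* was also called higher, and its sum with its copy differed by -0.13 (edgeR adjusted p = 0.872). Copies were added up for 13 families that held 19 of the called genes, and the sum was still past the threshold in 3 of the 13. The other 44 called genes had no such copy.

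**Figure D2:**
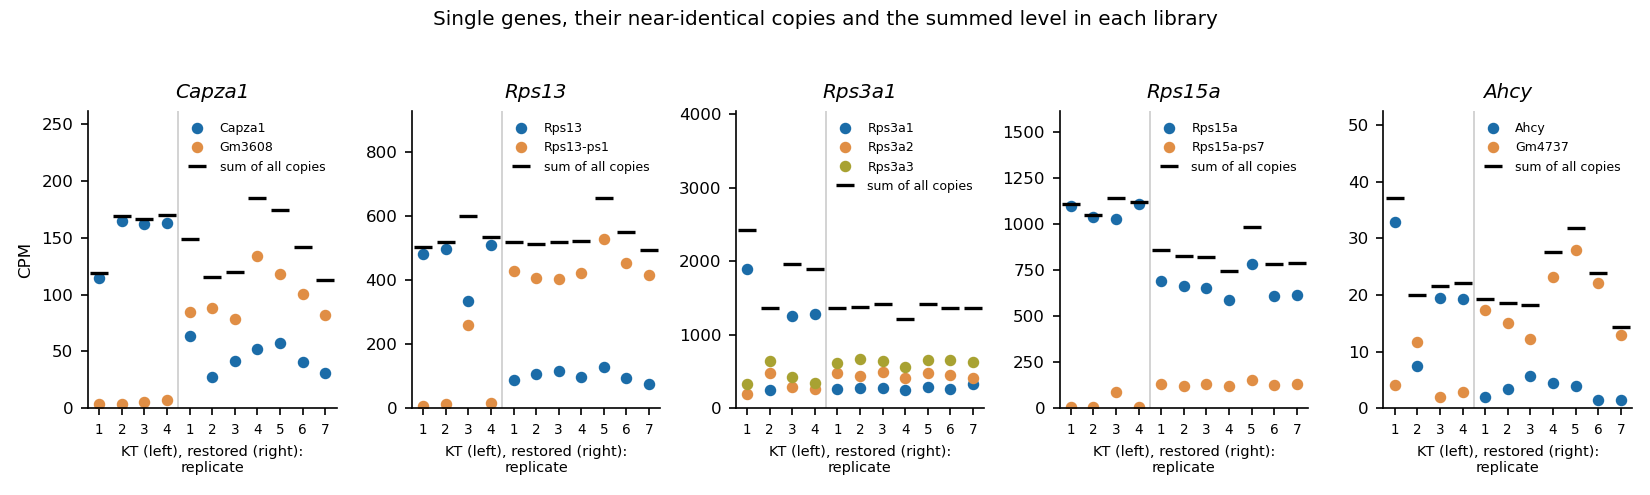
Level in CPM (linear axis from 0) in each of the 4 KT and 7 restored libraries of *Capza1*, *Rps13*, *Rps3a1*, *Rps15a* and *Ahcy* with near-identical copies, colored points for single genes and black dashes for the sum of all copies. *Rps13* and *Capza1* are lower in restored libraries where *Rps13-ps1* and *Gm3608* are higher, and the family means are 539 CPM in both groups for *Rps13*, and 156 CPM in KT and 143 CPM in restored libraries for *Capza1*.

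The families whose sums stayed past the threshold belonged to *Trim12a*, *Tmem254* and *Myo3b*. *Trim12a*, a mouse relative of the retrovirus restriction factor TRIM5, read 13, 16.6, 11 and 21.6 CPM in KT, and was at 0 in 5 restored libraries and at 0.225 and 0.171 CPM in the others. Over the groups these were 111 counts in KT and 2 in restored libraries, a ratio of 183 after scaling for depth (95% interval 49.6 to 1530, counting error only). *Trim5*, its near-identical copy, read 2.44 to 9.11 CPM in KT and 0 to 0.643 CPM in restored libraries, and the sum of both differed by -7.03 (log2, edgeR adjusted p = 1.1e-06). The non-restored *Trp53* wild-type libraries averaged 0.0515 CPM of *Trim12a*. *Trim12a* had no counts in the restored *Trp53*-deficient libraries either, and at most 21 in a non-restored one. The neighboring *Trim34a* read 15.8, 4.98, 9.75 and 12.5 CPM in KT and 0.765 to 2.91 CPM in restored libraries (edgeR adjusted p = 0.0146), and its sum with *Trim34b* differed by -1.25 (edgeR adjusted p = 0.165). The *Tmem254* copies together read 116 ± 35.2 CPM in KT and 46.2 ± 7 CPM in restored libraries (edgeR adjusted p = 0.000491). *Myo3b*, an unconventional myosin, was at 6.5 to 15.8 CPM in KT and 0 to 2.06 CPM in restored libraries, and the sum with its copy differed by -3.02 (log2, edgeR adjusted p = 0.0421).

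The lower genes without a copy included *AI506816*, the one with the smallest p, which is given further on, and then *Apobec3* and *Mical1*. *Apobec3*, a cytidine deaminase that restricts retroviruses, read 115, 53.2, 57.7 and 70 CPM in KT and 10.9 to 21.8 CPM in restored libraries (median 18.9 CPM), with no overlap and a difference of -2.11 ± 0.30 (log2, SE, edgeR adjusted p = 0.00106). The non-restored mean lay between, at 44.9 ± 15.7 CPM (SD, n = 10), and the restored minus non-restored difference was -1.39 (edgeR adjusted p = 0.00439). *AC113595.1*, which overlaps *Apobec3* on the same strand, had 34 counts in KT and 5 in restored libraries, so reads of the 2 cannot be assigned with certainty. *Mical1*, a monooxygenase that disassembles actin filaments, read 17.2, 17.4, 14.6 and 15.3 CPM in KT and 3.82 to 8.68 CPM in restored libraries (log2 difference -1.61 ± 0.23, edgeR adjusted p = 0.0012). Its non-restored mean was also intermediate, at 10 CPM, with a restored minus non-restored difference of -0.93 (edgeR adjusted p = 0.0114).

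Other genes of the cytoskeleton, adhesion and membrane traffic were lower by smaller amounts. *Lims1*, an adaptor of integrin-linked kinase, read 397, 299, 385 and 410 CPM in KT and 144 to 252 CPM in restored libraries (edgeR adjusted p = 0.00714). *Micall1*, a recycling endosome protein, read 48.7, 35.7, 55.7 and 56.1 CPM and 16 to 29.6 CPM (edgeR adjusted p = 0.00439). *Cttnbp2nl*, a cortactin-binding protein, read 97.5, 136, 104 and 106 CPM and 36.3 to 59.2 CPM (edgeR adjusted p = 0.00714). Restored libraries were below every KT library for each of these 3, with log2 differences of -0.86, -1.21 and -1.21. *Dynlrb1*, a light chain of cytoplasmic dynein, differed by -0.67 on the same scale (edgeR adjusted p = 0.0239). The long noncoding gene *AI506816* showed a larger change, from 31.6, 34.1, 26.4 and 24.9 CPM in KT to 0.765 to 5.31 CPM in restored libraries (-3.26 ± 0.39, edgeR adjusted p = 7.58e-05), with a non-restored mean of 2.52 CPM.

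Surface, secreted and growth factor genes showed wide spread within KT. *Cd177*, a surface glycoprotein best known from neutrophils, read 138, 31.6, 208 and 267 CPM in KT and 0.514 to 16.1 CPM in restored libraries (median 2.95 CPM), a difference of -5.23 ± 0.80 (log2, SE, edgeR adjusted p = 0.00268). Its non-restored mean was 3.62 CPM. Of the neutrophil and myeloid markers, *Ly6g* and *S100a9* were at 0 in all 11 libraries, *S100a8* read 4.12, 0.831, 0.813 and 0 CPM in KT and at most 0.643 CPM in restored libraries, and *Itgam* read 22.7, 0, 3.25 and 2.4 CPM and at most 3.29 CPM. The part of such cells in the *Cd177* difference was not tested. *Fgf2*, the basic fibroblast growth factor, read 207, 21.6, 73.5 and 113 CPM in KT and 3.19 to 5.14 CPM in restored libraries (-4.65 ± 0.81, edgeR adjusted p = 0.0101). In non-restored libraries *Fgf2* ranged from 2.48 to 89.6 CPM. *Fgf2* overlaps *Nudt6* on the opposite strand, and whether counting used the strand is not given in the sources used here. *Spink5*, a secreted serine protease inhibitor, read 7.55, 27.4, 19.5 and 20.6 CPM in KT and was at 0 in 5 restored libraries, with 0.982 and 2.7 CPM in the rest (edgeR adjusted p = 0.0253). *Serpinf1*, the secreted protein PEDF, read 56.3, 6.65, 63 and 22.1 CPM in KT and 2.45 to 12.8 CPM in restored libraries, with overlap through KT replicate 2 (edgeR adjusted p = 0.0497). *Loxl3*, a lysyl oxidase of the matrix, was at 2.49 to 6.86 CPM in KT and 0 to 1.2 CPM in restored libraries.

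Enzymes of lipid, steroid and redox metabolism formed the next group of lower genes. *Cyp1b1*, a cytochrome P450 that oxidizes aromatic hydrocarbons and estrogens, read 166, 19.1, 53.6 and 64.3 CPM in KT and 2.68 to 9.69 CPM in restored libraries (-3.66 ± 0.56, edgeR adjusted p = 0.00268). *Cers6*, a ceramide synthase, read 185, 64.8, 91 and 116 CPM and 9.43 to 37 CPM (-2.08 ± 0.36, edgeR adjusted p = 0.00871). *Hsd11b2*, which inactivates glucocorticoids, read 37.1, 6.65, 19.9 and 12.5 CPM and 1.29 to 5.15 CPM (-2.48, edgeR adjusted p = 0.0136). No restored library reached the lowest KT library for these 3, and KT replicate 1 was the highest and KT replicate 2 the lowest KT library for each. The non-restored means of *Cyp1b1*, *Cers6* and *Hsd11b2* were 2.8, 17 and 5.25 CPM. *Cyb5r3*, a cytochrome b5 reductase, was lower by a smaller amount (-0.96, edgeR adjusted p = 0.0101), as was *Glo1*, which detoxifies methylglyoxal and whose sum with its copy differed by -0.72 (edgeR adjusted p = 0.0853). *Ak1*, an adenylate kinase, read 10.5 to 24.7 CPM in KT and 2.06 to 8.08 CPM in restored libraries. Among endoplasmic reticulum genes, *Fkbp11*, a peptidyl-prolyl isomerase of secretory cells, read 26.8, 41.5, 22.3 and 26.4 CPM in KT and 6.12 to 18.1 CPM in restored libraries (-1.16, edgeR adjusted p = 0.043), and *Arl6ip1*, which shapes its membrane, differed by -1.04 (edgeR adjusted p = 0.0154).

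The remaining lower genes had other roles or none known. *Pttg1*, the securin that delays the separation of sister chromatids, read 14.4, 17.4, 8.94 and 18.2 CPM in KT and 1.53 to 7.03 CPM in restored libraries (-1.80, edgeR adjusted p = 0.0416). *Dnajb12*, a chaperone of the endoplasmic reticulum membrane, read 32.4 to 46.7 CPM and 19.3 to 24.9 CPM, and *Rnf41*, a ubiquitin ligase, 15 to 21.3 CPM and 8.34 to 11.7 CPM. *Paip2b*, which binds the poly(A)-binding protein, read 50.8 to 63.8 CPM in KT and 24.1 to 46.3 CPM in restored libraries. The ranges of these 4 did not overlap. *Fam89a* and the noncoding genes *Gm26880*, *Gm42658*, *Gm43923* and *2010001K21Rik* were low throughout, with KT means of 4.79, 5.84, 6.22, 16.1 and 7.43 CPM and restored means of 0.366, 0.599, 1.37, 5.16 and 1.43 CPM.

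Some lower genes stood, in restored libraries, away from the non-restored level. These comparisons share the restored libraries, so the values are given side by side. *Apoc1*, an apolipoprotein, read 373, 154, 352 and 333 CPM in KT, 63.6 to 198 CPM in restored libraries and 25.4 ± 10.1 CPM in non-restored libraries (SD, n = 10). Its restored minus KT difference was -1.73 ± 0.36 (edgeR adjusted p = 0.0297) and its restored minus non-restored difference 1.85 (edgeR adjusted p = 0.0015). *Slc23a1*, a vitamin C transporter, read 34.3, 35.7, 23.2 and 23 CPM in KT, 4.06 to 13.5 CPM in restored libraries and 2.66 CPM on average in non-restored libraries. Its differences were -1.74 (edgeR adjusted p = 0.0333) and 1.64 (edgeR adjusted p = 0.00828). *Fkbp11*, above, averaged 6.4 CPM in non-restored libraries and was 1.01 higher in restored ones (edgeR adjusted p = 0.0131). For these 3 genes the restored mean thus lay between those of the other groups. *Cubn*, the endocytic receptor cubilin, was lowest in restored libraries. It read 9.61, 3.32, 1.22 and 18.7 CPM in KT, 0.299 to 2.7 CPM in restored libraries and 18.3 ± 7.08 CPM in non-restored libraries, with differences of -2.58 (edgeR adjusted p = 0.0347) and -3.71 (edgeR adjusted p = 9.2e-05).

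**Figure D3:**
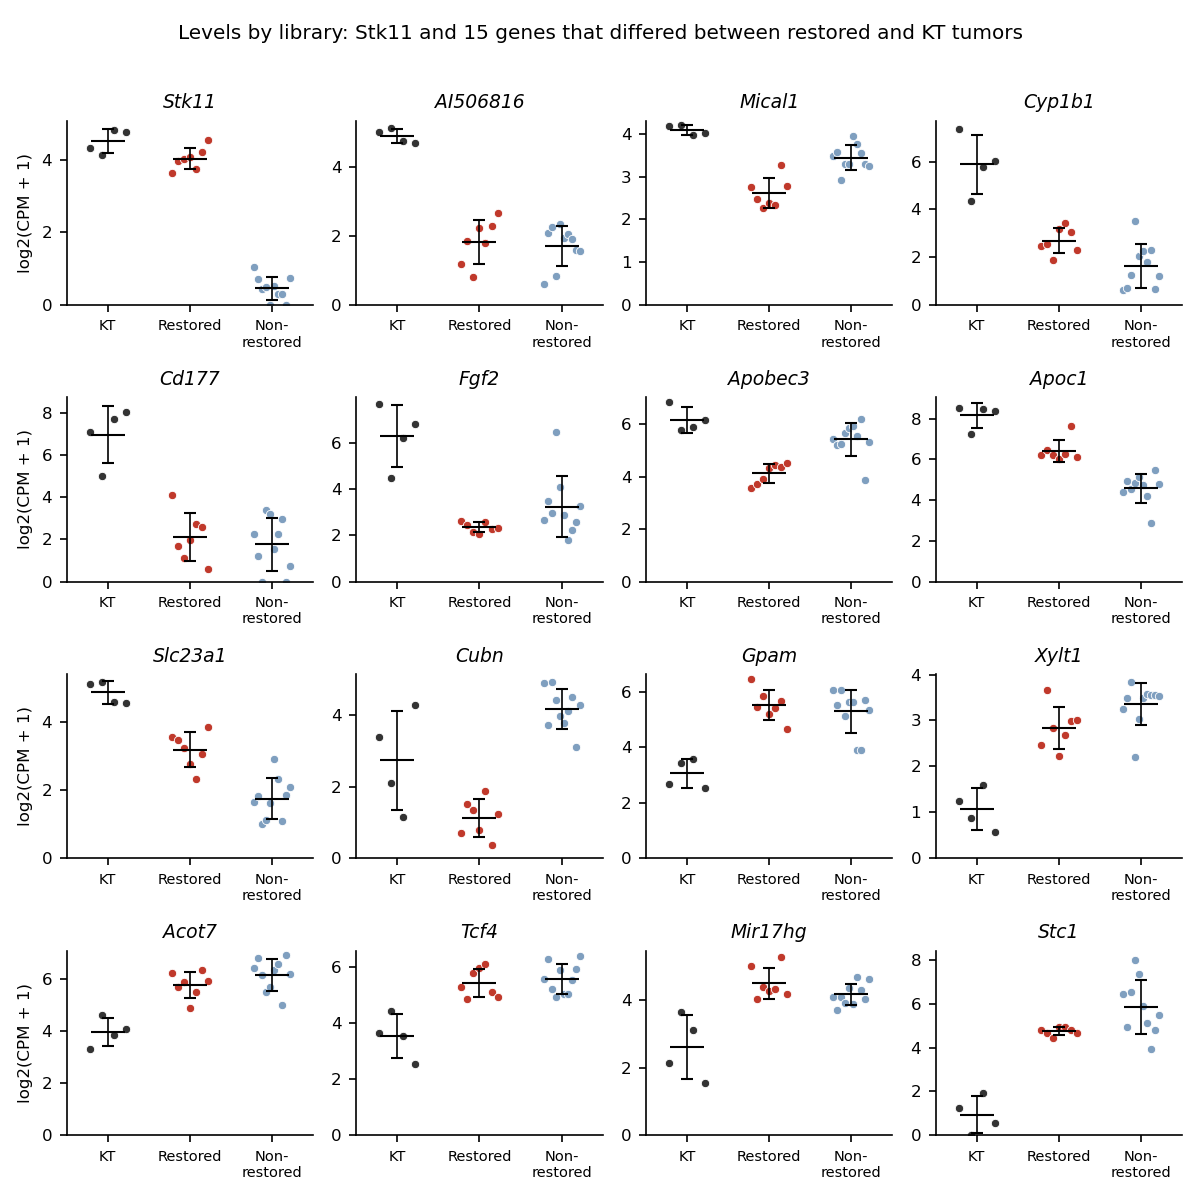
Levels, as log2(CPM + 1), of *Stk11* and 15 called genes in every KT, restored and non-restored library, 1 point per library, with the mean and SD of each group as the bar and whiskers. *Apoc1* and *Slc23a1* have restored means between those of the other groups, *Apobec3* and *Cubn* have their lowest mean in restored libraries, and *Gpam* and *Xylt1* in restored libraries overlap the non-restored ones.

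Of the higher genes without a copy, *Gpam* and *Xylt1* had the smallest p, and they are given first with 2 other enzyme or transporter genes. *Gpam*, the mitochondrial acyltransferase that begins glycerolipid synthesis, read 5.49, 9.97, 11 and 4.8 CPM in KT and 24.7 to 86.8 CPM in restored libraries (median 43.4 CPM), a difference of 2.61 ± 0.47 (log2, SE, edgeR adjusted p = 0.0104). *Acot7*, an acyl-CoA thioesterase, read 8.92, 23.3, 13.4 and 15.8 CPM and 28.5 to 80.2 CPM (1.89, edgeR adjusted p = 0.0186). Both were separate from KT in all 7 restored libraries, and their non-restored means were 43.2 and 75.4 CPM. *Xylt1*, the xylosyltransferase that starts glycosaminoglycan chains on proteoglycans, read 1.37, 0.831, 2.03 and 0.48 CPM in KT and 3.68 to 11.7 CPM in restored libraries (2.37 ± 0.43, edgeR adjusted p = 0.0117). *Slc10a1*, a bile acid transporter known from hepatocytes, was lower in level, at 0.686 to 4.32 CPM in KT and 5.18 to 11.5 CPM in restored libraries (edgeR adjusted p = 0.037).

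Regulators and signaling genes were the other part of the higher group. *Mir17hg*, whose microRNAs are printed above, read 3.43, 11.6, 7.72 and 1.92 CPM in KT and 15.5 to 38 CPM in restored libraries (median 19.2 CPM), a difference of 1.91 ± 0.37 (log2, SE, edgeR adjusted p = 0.0186). *Tcf4*, a basic helix-loop-helix transcription factor, read 11.7, 20.8, 10.6 and 4.8 CPM and 27.9 to 68.1 CPM (1.96, edgeR adjusted p = 0.0247). No restored library overlapped KT for either, and the non-restored means were 17.5 and 50.3 CPM. *Rnf43*, a ubiquitin ligase that removes Wnt receptors, differed less but with a narrow spread, at 16.3 to 19.9 CPM in KT and 25.2 to 34.4 CPM in restored libraries (0.69, edgeR adjusted p = 0.0415). *Homer2*, a scaffold protein, read 5.28 to 12.5 CPM in KT and 17.1 to 69.4 CPM in restored libraries, of which replicates 4 and 5 were the highest at 61.4 and 69.4 CPM (2.08, edgeR adjusted p = 0.0333).

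*Stc1*, the secreted hormone stanniocalcin, had the largest difference among higher genes without a copy. It read 1.37, 0, 2.84 and 0.48 CPM in KT and 20.6 to 30.2 CPM in restored libraries (median 27 CPM), a difference of 4.26 ± 0.91 (log2, SE, edgeR adjusted p = 0.037). In non-restored libraries it spread from 14.4 to 262 CPM, with a mean of 118 CPM in the vehicle libraries and 26.6 CPM in the tamoxifen libraries. The remaining higher genes were *Ercc3*, a helicase of the TFIIH complex, *Kansl1*, a subunit of a histone acetyltransferase complex, and *Nfe2l3*, a leucine zipper factor, with log2 differences of 0.72, 0.41 and 1.08.

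Genes that define the tumor cells gave no call. Over all genes tested 0.498% were called, so 0 in lists this short is near the general share. *Sftpc*, the surfactant protein of alveolar type II cells, read 19700, 36600, 30800 and 30400 CPM in KT and 14700 to 48000 CPM in restored libraries (median 35400 CPM), a log2 difference of 0.20 with a 95% confidence interval of -0.84 to 1.24. *Sftpb* differed by -0.15 (interval -0.74 to 0.43), *Nkx2-1*, the lung lineage factor, by 0.29, and *Cebpa*, a factor of type II differentiation, by 0.16. The level of *Sftpc* was thus high in all 11 libraries. Of 28 alveolar type II genes, 0 were called, 4 had an unadjusted p under 0.05, all lower, and the median log2 difference was -0.07. The members with the smallest p were *Lcn2* (-1.07, edgeR adjusted p = 0.205) and *Npc2* (-0.50, edgeR adjusted p = 0.219). Of 20 alveolar type I genes 0 were called, with a median of 0.13.

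The genes listed for the LKB1 pathway also gave no call, which in lists this short is again near the 0.498% of all genes. A positive difference was found in 51.5% of all genes tested. Of 11 genes tested for the LKB1 complex and the subunits of AMPK, 0 were called, 5 had a positive difference and the median was -0.07. Of 9 AMPK-related kinases tested, 0 were called, and *Sik2*, a salt-inducible kinase, was the 1 member with an unadjusted p under 0.05 (log2 difference 1.02, p = 0.00646, edgeR adjusted p = 0.229). For 15 CREB coactivators and cAMP-responsive genes the median was 0.04 with 0 called, and *Ptprn*, a cAMP-responsive gene, differed by 0.34.

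Metabolic groups held 0 or 1 called member each, where 0.498% of all genes were called. In glycerolipid synthesis and breakdown 1 of 23 genes was called, *Gpam*, and the median of the group was 0.01. Of 18 fatty acid synthesis genes 0 were called and the median was 0.16, with *Acss2*, an acetyl-CoA synthetase, at 0.93 (edgeR adjusted p = 0.238) and *Scd1*, a desaturase, at 1.00 (edgeR adjusted p = 0.541). None of 11 phosphatidylcholine genes, 23 sterol genes or 19 glycolysis genes was called, with medians of 0.06, -0.07 and -0.06. Among glycosaminoglycan synthesis genes 1 of 20 was called, *Xylt1*. Of 26 xenobiotic and NRF2 genes 1 was called, *Cyp1b1*, and of 23 genes of endoplasmic reticulum folding 1 was called, *Fkbp11*. In the hypoxia group 1 of 17 was called, *Stc1*, and the median was 0.13.

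The growth and stress groups had medians somewhat away from that of all genes, without called members. Of all 12656 genes tested, 51.5% had a positive difference and 0.498% were called. Proliferation genes had a median of -0.29, with 7 of 30 higher and 0 called, and *Mki67*, the proliferation marker, differed by -0.43. Targets of p53 had a median of 0.38, with 21 of 25 higher and 0 called. *Cdkn1a*, which encodes the cell-cycle inhibitor p21, read 174, 168, 212 and 120 CPM in KT and 273 to 409 CPM in restored libraries, and missed the threshold (log2 difference 0.84 ± 0.20, edgeR adjusted p = 0.057). Its ranges did not overlap. Without restored replicates 4 and 5 the median of the p53 targets was 0.20, and that of the proliferation genes was -0.47. Immediate early genes, which also respond to tissue dissociation, had a median of 0.32, with 17 of 24 higher, 0 called, and *Fos* at 1.31 (edgeR adjusted p = 0.171). Estrogen-responsive genes, which bear on tamoxifen and sex, had 0 of 10 called, with *Celsr2* at 1.09 (edgeR adjusted p = 0.0863) and *Greb1* at -2.15 (edgeR adjusted p = 0.166).

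Immune and matrix groups were mixed. For all genes tested, the share called was 0.498% and the share with a positive difference 51.5%. Of 25 genes of MHC class I and the interferon response 0 were called, with a median of -0.08, and of 8 MHC class II genes 0 were called, with 1 higher and a median of -0.37. *Cd74*, the class II invariant chain, differed by -0.04. In the *Trim5* group 2 of 9 genes were called, *Trim12a* and *Trim34a*, both lower, while the median was 0.23. Chemokines and cytokines (0 of 20 called, median 0.14), extracellular matrix genes (1 of 29, *Loxl3*, median 0.05), integrins (0 of 11, median 0.33) and genes of the epithelial and mesenchymal state (0 of 16, median 0.43) held 0 or 1 called gene each. Lung lineage factors (12 tested, median 0.24), C/EBP factors (5, median 0.16), developmental signaling genes (28, median 0.20) and lysosomal genes (27, median 0.01) had 0 called. Altogether 12 of the called genes belonged to any of these groups. The number of different genes in the groups was not counted, so the 12 cannot be set against the share called over all genes.

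**Figure D4:**
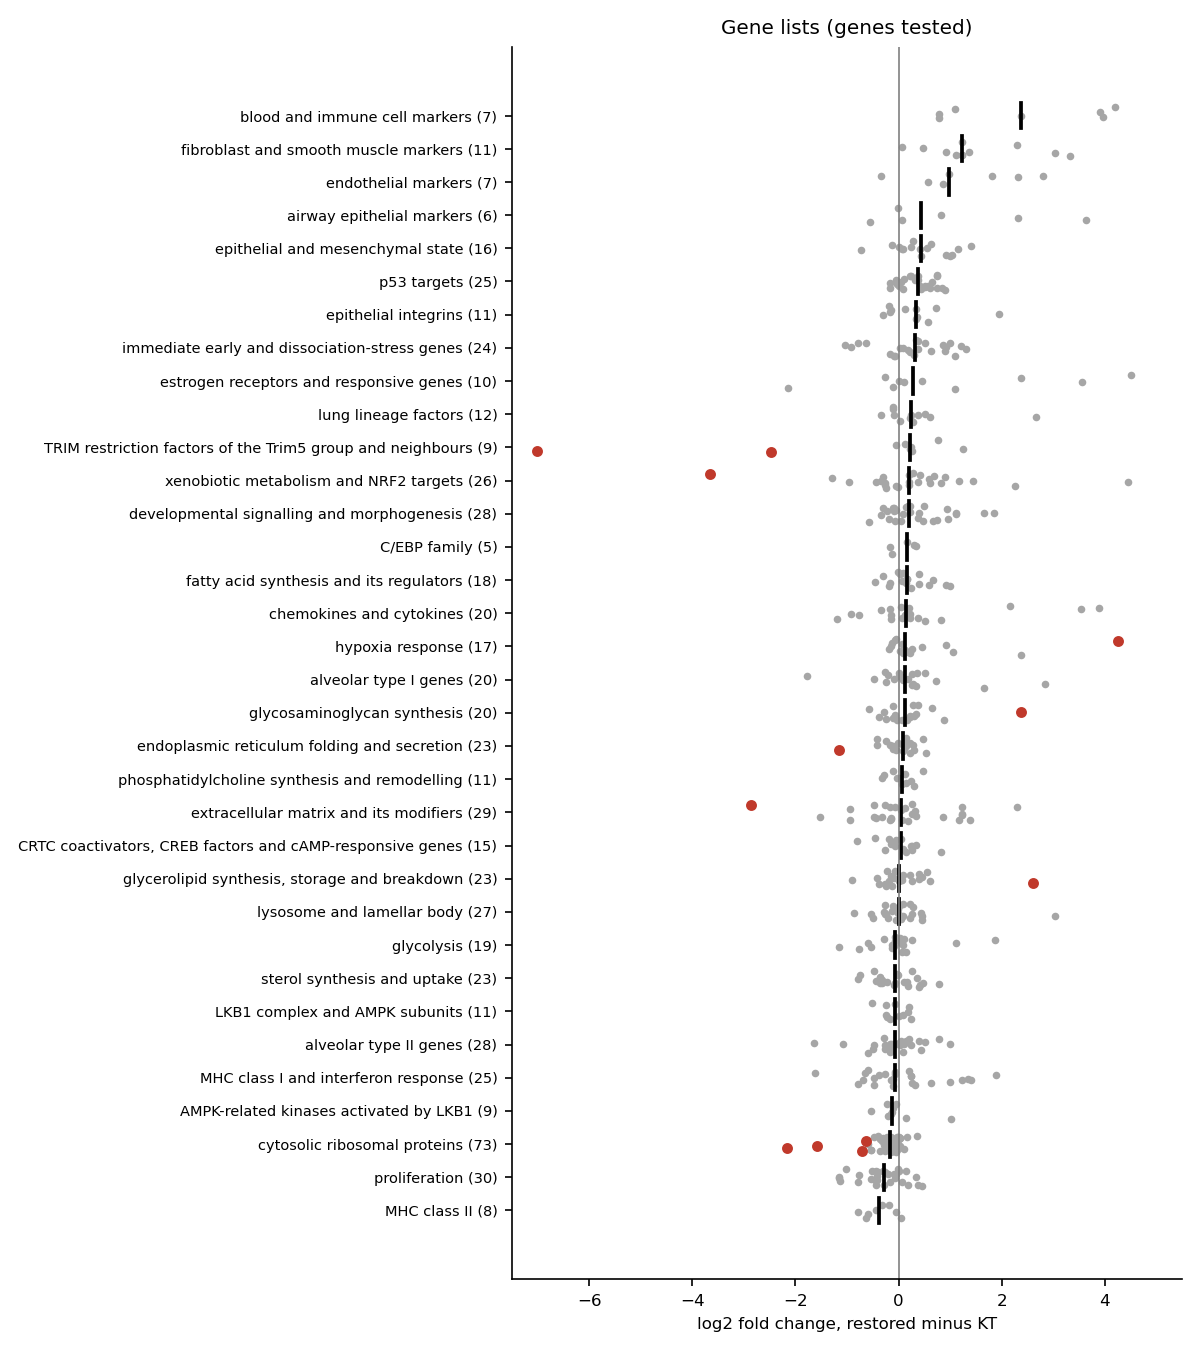
Restored minus KT log2 difference of every tested gene in each group of genes, 1 point per gene, with red points for called genes, a black line for the median of the group and the number tested in brackets. Most medians lie near 0, the lowest belong to MHC class II (-0.37) and proliferation (-0.29), the highest to blood and immune markers (2.37) and fibroblast markers (1.23), and 12 called genes belong to the groups other than cell markers.

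Transcripts of other cell types were present at low levels and varied more among restored than among KT libraries, although the sort removed CD45, CD31, F4/80 and Ter119 positive cells. The summed level of 21 blood and immune markers was 19.9 to 44.6 CPM in KT and 19.2 to 316 CPM in restored libraries, with the defining markers *Nkg7*, *Ly6g* and *Cpa3* at 0 throughout. All 7 markers with enough counts to be tested were higher in restored libraries (median 2.37 on the log2 scale), with 0 called and 3 at an unadjusted p under 0.05. A low marker could pass the filter through high restored or non-restored libraries, so the shared direction of those tested is partly set by the filter. *Itgam*, which did not pass it, read 22.7, 0, 3.25 and 2.4 CPM in KT and at most 3.29 CPM in restored libraries. The pan-leukocyte gene *Ptprc* read 45.7 and 38.6 CPM in restored replicates 1 and 6, at most 4.21 CPM in the other restored libraries and at most 1.37 CPM in KT. Fibroblast markers summed to 21.5 to 99.7 CPM in KT and 33.1 to 323 CPM in restored libraries, and all 11 tested were higher in restored libraries with 0 called (median 1.23). The same limit of the filter applies, and *Inmt*, not tested, read 1.37, 3.32, 0 and 3.36 CPM in KT and 0 to 2.29 CPM in restored libraries. Endothelial markers summed to 12.2 to 24.1 and 3.93 to 92.6 CPM, and mesothelial markers to 0.831 to 8.15 and 0.299 to 57.7 CPM. Airway markers ranged from 91.3 to 314 CPM in KT and 20.9 to 1600 CPM in restored libraries, where *Muc5b*, an airway mucin, read 1030 and 1230 CPM in replicates 4 and 5 and 1.54 to 10.6 CPM in the others. Red blood cell markers did not exceed 3.4 CPM. In bulk samples, fewer cells of a type and less RNA per cell cannot be told apart. The part of these cells in the differences was not tested. The count of called genes was 33 without restored replicates 1 and 6 and 38 without restored replicates 4 and 5.

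Called genes often lay near each other. Another called gene was found within 2 Mb of 23 of the 63 called genes (36.5%), and a called gene was found within 2 Mb of 1552 of the 12533 other genes (12.4%). Some of these neighbors are not independent. *Tmem254b* and *Tmem254c* are near-identical copies, and *AC113595.1* with *Apobec3* and *Gm42658* with *Capza1* overlap on the same strand, which raises the share among called genes. Of the 2 runs of 4 called genes, the one on chr15:79108898-80091868 (mm10) held *Micall1*, *AC113595.1*, *Apobec3* and *Rpl3*, all lower. The 18 other genes tested in that run were not called and had a median of -0.22, with 3 higher. The other, on chr7:116331505-118129662, held *Rps13*, *Rps15a* and *Arl6ip1*, which were lower, and *Xylt1*, which was higher, and its 6 other tested genes had a median of -0.44. On chr3:104822779-105053146, *Capza1*, *Gm42658* and *Cttnbp2nl* were called lower, and *Gm42658* lies within *Capza1*. The other runs were pairs of called genes, namely *Rps15a-ps3* and *Acot7*, both higher, on chr4:150847113-152271855, and, all lower, *Tmem254c* and *Tmem254b* on chr14:26063919-26207041, *Trim34a* and *Trim12a* on chr7:104244457-104315466, *Cers6* and *Myo3b* on chr2:68861441-70429198, *Lims1* and *Dnajb12* on chr10:58323466-59899302, and *Loxl3* and *Paip2b* on chr6:83034173-83831741. The *Stk11* gene shares a chromosome with *Lims1*, *Dnajb12*, *Mical1* and *Rnf41*, at distances of 20.2 to 48.3 Mb.

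**Figure D5:**
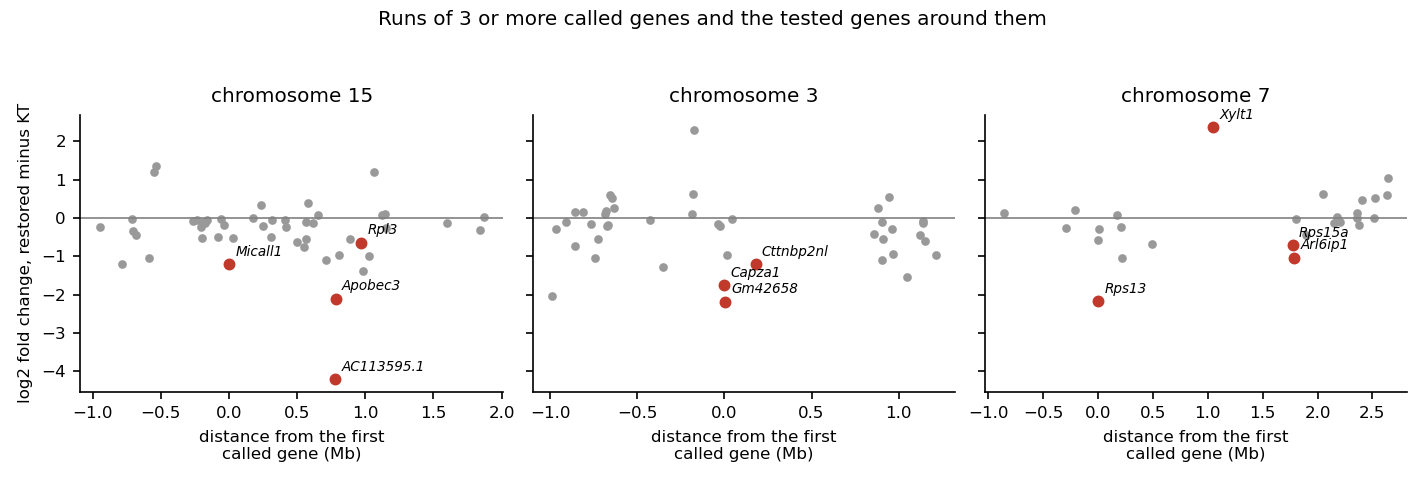
Restored minus KT log2 difference of tested genes against distance in Mb from the first called gene of each run, for the runs on chromosomes 15, 3 and 7 and 1 Mb to each side, with called genes in red and named. The called genes (4, 3 and 4) sit among 49, 42 and 27 tested genes, and most of the others lie near 0.

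Restored and non-restored tumors were also compared in libraries that shared none with the comparison above. These *Trp53*-deficient tumors carried Trp53flox/flox and were collected at 16 to 19 weeks. The 4 restored libraries were all from females with FLPo-ERT2 and tamoxifen. The 7 non-restored libraries were 5 with FLPo-ERT2 and vehicle (3 female and 2 male) and 2 without FLPo-ERT2 and with tamoxifen (1 female and 1 male). Libraries with the same animal name were summed, which left 4 restored and 4 non-restored units, and sex and treatment still differed between them. The edgeR test called 0 of 12518 genes, with 747 at an unadjusted p under 0.05 (5.97%), and DESeq2 called 23. Even *Stk11*, the gene restored in these tumors, was not called by edgeR (log2 difference 5.15, unadjusted p = 4.69e-06, edgeR adjusted p = 0.0588). Its mean was 12 CPM in restored and 0.32 CPM in non-restored units. The absence of a call in this test therefore does not show that a gene did not differ. Of the 63 genes called between restored and KT tumors, 57 could be tested there. None of them was called by edgeR, 3 had an unadjusted p under 0.05 (5.26%), and DESeq2 called 1 of them. These 3 were *Stc1* (log2 difference -1.24, unadjusted p = 0.000812, edgeR adjusted p = 0.804), *AI506816* (-1.07, unadjusted p = 0.0258, edgeR adjusted p = 0.804) and *Rps13* (-0.56, unadjusted p = 0.0487, edgeR adjusted p = 0.804). No KT group without *Trp53* was analysed here, so the comparison with intact *Lkb1* could not be repeated in them.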

How the data were processed

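Per the labels and the methods, tumors were dissociated, neoplastic cells sorted, and libraries made from 2 to 10 ng of RNA with rRNA depletion. The authors aligned reads to mm10 with STAR 2.6.1d and counted them with RSEM 1.2.30. The deposited values used here are RSEM expected counts per gene, rounded to whole numbers (5.57% of values were not whole), and, for 1 alternative each, the deposited TPM values and the effective lengths, a score in bases. Tables of the authors' own comparisons, holding fold changes and p-values, and their normalized tables were not used. The members and gene lists were chosen with earlier results of these data known. Replicates are separate libraries, and some share a mouse, so p-values partly measure spread between tumors of 1 mouse.

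Genes were filtered with filterByExpr, scaled by TMM and fitted with edgeR 4.0.16 (quasi-likelihood test, R 4.3.3) over the 21 *Trp53* wild-type libraries in 3 groups, and p-values were adjusted by Benjamini-Hochberg over all 12656 genes (threshold 0.05). CPM values use the same scaling. *Stk11* was tested by exact permutation. Intervals are 95%, and those on counts, like the floor of 3 counts, cover counting error only. Named genes were *Stk11*, the called genes, at most 6 genes per list by smallest p, and 9 defining genes. Near-identical copies were found with blastn 2.17.0 on GENCODE M21 transcripts (at least 97% identity over at least 50% of the shorter transcript) and their counts summed. The fit was tested on simulated counts. No 2 libraries matched within sampling noise. Alternatives used DESeq2 1.42.0, other scaling and filters, sex, effective length, thinning and left-out libraries. Strand use in counting is not given in the sources used here. One allele shared by all groups and 1 marker gene are not reported here.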

Additional observations from a re-analysis of the deposited data

Results flagged for a closer look

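In 15 of 146 groups of values tested, the highest or lowest library stood further from its nearest neighbor than Dixon's 95% critical value allows. Chance flags about 1 in 20 such groups where values are normal and independent. The test used CPM without a log, and some of the genes share reads, so the 15 cannot be set against that rate. Of the 15, 7 were KT and 8 were restored values, and KT replicate 3 accounted for 4. In KT, replicate 3 read 335 CPM for *Rps13* (nearest 482), 4.47 CPM for *Rps15a-ps3* (nearest 0.48), 3.25 CPM for *Rps15a-ps4* (nearest 0.959) and 14.2 CPM for *Rps15a-ps6* (nearest 4.15). These 4 genes belong to families of near-identical ribosomal copies. Also in KT, *Capza1* was 115 CPM in replicate 1 (nearest 162), *Arl6ip1* was 305 CPM in replicate 2 (nearest 205) and *2010001K21Rik* was 13.4 CPM in replicate 4 (nearest 5.82). In restored libraries, replicate 1 read 16.1 CPM for *Cd177* (nearest 5.63) and 41.2 CPM for *Tmem254b* (nearest 25.4), and replicate 6 read 8.68 CPM for *Mical1* (nearest 5.83) and 198 CPM for *Apoc1* (nearest 87.2). These replicates, 1 and 6, were those with the most macrophage transcripts, and the part of such cells in these values was not tested. The remaining restored values were 11.7 CPM for *Xylt1* in replicate 2 (nearest 7.03), 383 CPM for *Nkx2-1* in replicate 3 (nearest 268), 2.7 CPM for *Spink5* in replicate 5 (nearest 0.982) and 330 CPM for *Rps3a1* in replicate 7 (nearest 285).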

How the results depend on the processing

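The counts in this comparison depended strongly on the test, the libraries and the treatment of copies. The direction of all 63 called genes held in each of 26 alternatives in which they were tested. The 63 were selected on the libraries that the alternatives refit, so a kept direction largely follows from the selection and is not separate support. DESeq2 called 168 genes (72 higher and 96 lower in restored tumors), which held 62 of the 63. The identity of the called genes shifted more than the count in other settings. A fit of the restored and KT libraries alone called 53 (12 higher and 41 lower), of which 30 were among the 63. With no filter on low counts 40 of the 56 called genes were among them, and without KT replicate 2 it was 37 of 57. A minimum of 10 counts in every library left 20 (4 higher, 16 lower, and 3 genes of the pathway lists against 12), sex as a covariate 22 (6 and 16), female libraries alone 10 (2 and 8, and 4 of the lists) and a fit with only the tamoxifen libraries of the non-restored group 28 (5 and 23). The next 4 alternatives were added after seeing the data. Summing near-identical copies left 33 (7 higher, 26 lower, and 3 of the lists), leaving out both male KT libraries 13 (4 and 9, and 4 of the lists), leaving out restored replicates 4 and 5 38 (12 and 26, and 6 of the lists) and leaving out restored replicates 1 and 6 33 (8 and 25, and 6 of the lists). Without 1 library at a time, the count ran from 21 to 57, with 2 to 19 higher, 16 to 38 lower and 3 to 11 of the lists, and was lowest without KT replicate 1. With the replicate number as a block 67 genes were called (27 higher and 40 lower), but restored and KT libraries with the same number did not deviate together (correlations -0.05, 0.08, -0.03 and 0.08), so the numbers were not taken as pairs. *Rps13*, *Gm3608*, *Trim12a* and *Capza1* were past the threshold in every alternative that tested them singly. With female libraries alone 6 of the 63 stayed past it, these 4 with *AI506816* and *Apobec3*, and with sex as a covariate 20 did. The *Stk11* level was 64.8% to 75.9% of KT without 1 library at a time and 71.9% in females alone (added after seeing the data), and the exact permutation p was above 0.05, and so not significant, in 8 of the 11 leave-outs and in females. In *Trp53*-deficient tumors DESeq2 called 1 of the 63 genes and edgeR 0, and edgeR did not call *Stk11* there either. For each of these shifts the cause was not tested. Where libraries or genes were left out, the fit also held fewer of them. Depth limits the low genes, since KT libraries were shallow, and thinning all libraries to the shallowest called 46.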
